A study of Mus musculus with 7 samples.

Results

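The genes described here are those of islet endocrine cells other than the β-cell, read in RNA from FACS-sorted mouse β-cells after a very short high-fat diet. They are 8 of the 24035 genes in the count table and were chosen by name. Gcg, Sst, Ppy, Pyy and Ghrl encode islet hormones. Ttr encodes transthyretin, and Hhex and Irx2 encode transcription factors of the δ-cell and the α-cell. For 2 days, 3 C57BL/6N mice were fed a 60% high-fat diet (HFD) and 4 C57BL/6N controls stayed on standard chow (CD), from 12 weeks of age. The genotype in the labels is C57BL/6N, and the methods of the study name the diet mice as C57BL/6NCrl. The labels name no transgene or drug for either group, and each library is one mouse, so that p-values measure the spread between mice. Dispersed islet cells were labelled with ZIGIR, a zinc-granule dye, and with Cy5-tagged exendin-4, which binds the GLP-1 receptor, before the sort. Libraries are named by diet and replicate number, HFD2 to HFD4 and CD1 to CD4.

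An islet is a cluster of several endocrine cell types that signal to each other over short distances. α-cells secrete glucagon, which raises blood glucose, and δ-cells secrete somatostatin, which holds back the release of both insulin and glucagon. PP-cells make pancreatic polypeptide, and the rare ε-cells make ghrelin. Each hormone is cut from a larger precursor by prohormone convertases, and each lineage is held by its own transcription factors, among them Irx2 in α-cells and Hhex in δ-cells. Some of these genes are also transcribed at a low level in β-cells, so that a read in a sorted β-cell library does not by itself name the cell it came from.

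The libraries held 10559175 to 14391602 counts on HFD and 11145642 to 22557957 on CD. Ins1 and Ins2 together took 29.9 to 30.9% of the counts on HFD and 27.7 to 29.0% on CD, and 11 of 11 β-cell genes, including Pdx1, Mafa and Nkx6-1, were detected. HFD3 stood apart: it had a read for 9627 genes, against 12484 to 14600 in the other libraries, and 8.55% of the 9443 genes with at least 50 counts in every other library were at 0 in it. Fold changes are therefore also given without it. Levels are counts per 1000000 (CPM) of TMM-scaled library size. Sums over marker lists and floors at 0 reads are CPM of total counts, without TMM scaling. Intervals or floors on counts cover counting error only, because the reads carry no molecular identifiers.

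Windows before 4 start sites, those of Gcg, Sst, Ppy and Pyy, are shown as description, and a link to the levels was not tested. The windows come from RefSeq on GRCm38.p6, the assembly that mm10 names, and 7 of the 8 genes had a start in that table. Positions count back from the RefSeq start, and capitals mark the motif. For Gcg, Ppy and Pyy it is TATAA on the transcript strand between −40 and −16, and for Sst it is TGACGTCA, the palindromic cyclic AMP response element, between −100 and −1.
Gcg, −100 to −1, chr2:62483654-62483753, minus strand: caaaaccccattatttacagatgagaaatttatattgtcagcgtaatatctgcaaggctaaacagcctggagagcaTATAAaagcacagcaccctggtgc
Sst, −60 to −31, chr16:23890875-23890904, minus strand: cgcctccttggcTGACGTCAgagagagagt
Ppy, −100 to −1, chr11:102101320-102101419, minus strand: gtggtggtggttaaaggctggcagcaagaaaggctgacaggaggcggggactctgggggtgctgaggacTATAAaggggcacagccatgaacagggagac
Pyy, −100 to −1, chr11:102107833-102107932, minus strand: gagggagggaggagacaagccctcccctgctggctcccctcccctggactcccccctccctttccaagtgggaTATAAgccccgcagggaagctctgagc
TATAA began at −24 in Gcg, −31 in Ppy and −27 in Pyy, and was found in that window at 3.52% of 32851 RefSeq starts. TGACGTCA began at −48 in Sst and was found in 1.15% of the same starts, between −100 and −1. The Sst window had no TATAA and the other 3 had no TGACGTCA in these spans, and neither motif was found there for Hhex, Irx2 or the start of Ghrl nearest its GENCODE end. The GENCODE 5′ end of Sst lies 114 bases upstream of the RefSeq start. Ppy and Pyy, both members of the neuropeptide Y family, start 6513 bases apart on the same strand of chromosome 11.

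The 4 detected hormones other than insulin had lower mean levels after 2 days of HFD, but the groups overlapped for each, and none passed the test. Their log2 fold changes lay between −0.93 and −0.64, with standard errors of 0.34 to 0.55. The difference in means came with CD2 and CD3, which had the 2 highest levels of all 7 libraries for Gcg, Sst, Ppy and Pyy alike. Ttr had nearly the same mean on both diets, and Hhex, Irx2 and Ghrl were near the limit of detection. No member passed an adjusted p of 0.05 in edgeR's quasi-likelihood test, which called 0 of 12354 genes (0%). At an unadjusted p under 0.05 it had 713 genes (5.77%), 353 higher and 360 lower on HFD, and none of the 6 members tested was among them. limma-voom called 0% of genes, and edgeR's exact test (0.0809%), edgeR's likelihood ratio test (0.186%), DESeq2 on all genes with a count (0.508%) and DESeq2 on the genes kept by edgeR's filter (1.11%) each called 0 members.

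Gcg encodes proglucagon, from which α-cells make glucagon (chr2:62474530-62483650, minus strand, mm10). It had 71.1, 67.2 and 147 CPM in HFD2, HFD3 and HFD4, against 71.8, 282, 297 and 72.2 CPM in CD1 to CD4. CD2 and CD3 stood about 4 times above CD1 and CD4, HFD4 lay between, and the lowest library of all was HFD3. The means were 95.1 ± 45.03 CPM on HFD (SD, n = 3) and 181 ± 126 CPM on CD (SD, n = 4). The log2 fold change was −0.93 ± 0.55 (standard error; edgeR adjusted p = 0.887), and −0.74 without HFD3. In a bulk library, fewer cells of a type and less RNA per cell cannot be told apart, here and for each hormone below.

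Sst encodes somatostatin, the δ-cell hormone (chr16:23889573-23890958, minus strand), and it had the highest level per transcript length of the 5 hormones. Its levels were 563, 360 and 380 CPM in HFD2, HFD3 and HFD4, against 357, 1062, 819 and 462 CPM in CD1 to CD4. CD2 and CD3 were again highest, while CD1 was the lowest of all 7, level with HFD3. The means were 434 ± 112 CPM on HFD (SD, n = 3) and 675 ± 325 CPM on CD (SD, n = 4). On the log2 scale HFD over CD was −0.64 ± 0.35 (standard error; edgeR adjusted p = 0.875), and −0.53 without HFD3.

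Ppy encodes pancreatic polypeptide, the hormone of PP-cells (chr11:102099930-102101319, minus strand). It had 94.0, 123 and 97.4 CPM in HFD2, HFD3 and HFD4, against 84.6, 228, 273 and 83.0 CPM in CD1 to CD4. All 3 HFD libraries lay above CD1 and CD4 and below CD2 and CD3. The means were 105 ± 15.9 CPM on HFD (SD, n = 3) and 167 ± 97.9 CPM on CD (SD, n = 4). Its log2 fold change was −0.67 ± 0.41 (standard error; edgeR adjusted p = 0.887), and −0.82 without HFD3.

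Pyy encodes peptide YY, a relative of pancreatic polypeptide that islet cells of several types can make (chr11:102106676-102107832, minus strand). It had 62.6, 55.1 and 48.3 CPM in HFD2, HFD3 and HFD4, against 45.1, 136, 104 and 63.7 CPM in CD1 to CD4. The order of the CD libraries was that of Sst, with CD2 first and CD1 last. The means were 55.3 ± 7.12 CPM on HFD (SD, n = 3) and 87.3 ± 40.8 CPM on CD (SD, n = 4). HFD over CD gave a log2 fold change of −0.66 ± 0.34 (standard error; edgeR adjusted p = 0.861), and −0.67 without HFD3.

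Ghrl encodes ghrelin, the hormone of ε-cells (chr6:113716119-113719880, minus strand), and was barely detected. There were 0 reads in each of the 3 HFD libraries, against 5, 0, 3 and 0 reads in CD1 to CD4. A count of 0 allows up to 3 reads, which is 0.208 to 0.284 CPM in the HFD libraries, and no fold change is given. GENCODE places Gm26982 and Gm44033 on the opposite strand across Ghrl, and whether strand was used in counting is not given in the sources used here. Mboat4, the enzyme that adds the fatty acid to ghrelin, had 0 reads in all 7 libraries.

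**Figure D1:**
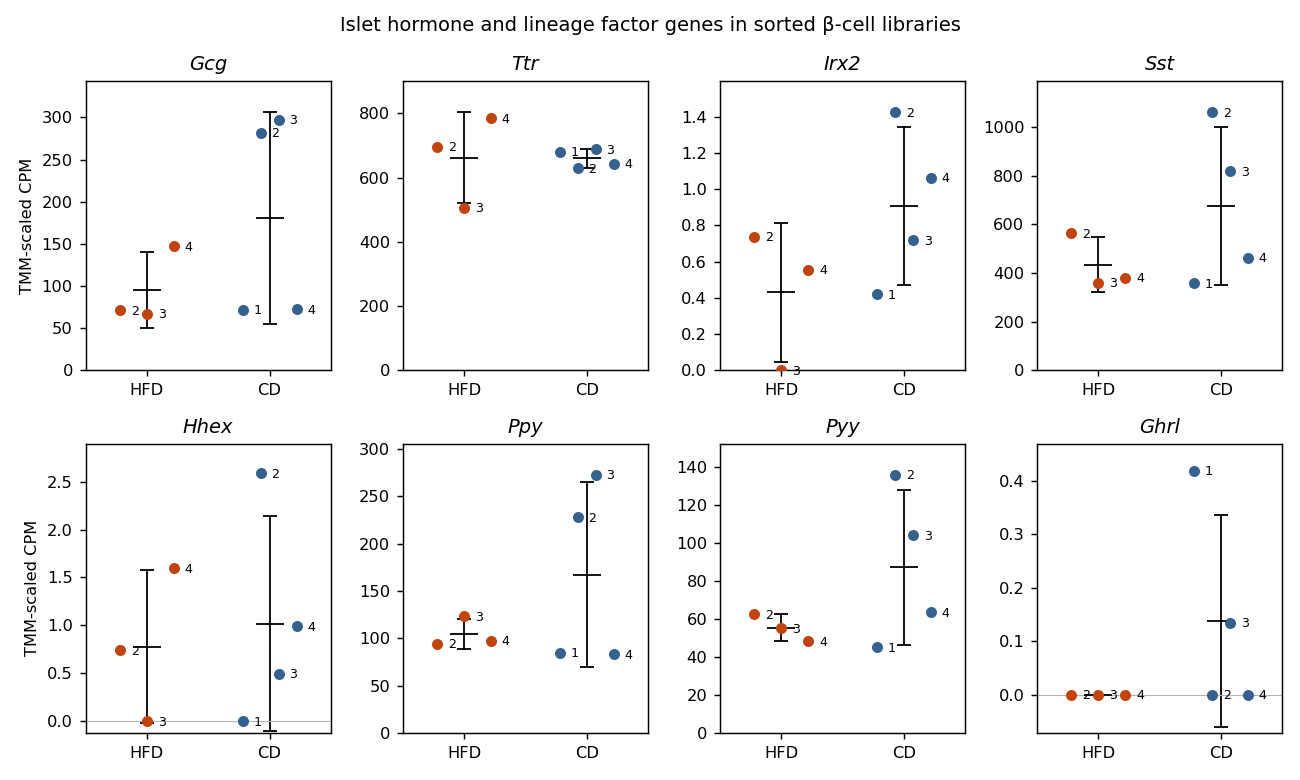
Level of each of the 8 genes (TMM-scaled CPM, 1 panel per gene with its own linear axis) in the 3 HFD libraries (orange) and 4 CD libraries (blue). Each point is 1 library with its replicate number, and the black lines are the mean and SD. CD2 and CD3 are the 2 highest points for Gcg, Sst, Ppy and Pyy, while the 4 CD points of Ttr lie between 628 and 688 CPM.

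The spread within a diet was itself uneven. Among the 4 CD mice the coefficient of variation was 69.5% for Gcg, 58.6% for Ppy, 48.2% for Sst and 46.8% for Pyy. The median over 3443 genes with a mean of at least 50 CPM was 12.02%, and 14, 16, 24 and 25 of those genes varied more among the CD mice than Gcg, Ppy, Sst and Pyy did, in that order. Among the 3 HFD mice the values were 47.3% for Gcg, 15.2% for Ppy, 25.7% for Sst and 12.9% for Pyy, against a median of 15.4%. The Gcg reads behind these values numbered from 735 in HFD3 (exact 95% Poisson interval 683 to 790) to 6634 in CD3 (6475 to 6796).

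Set against insulin, which needs no scaling between libraries, the hormone reads were again highest in CD2 and CD3. There were 2.56, 2.03 and 2.26 reads of Gcg, Sst, Ppy, Pyy and Ghrl per 1000 reads of Ins1 and Ins2 in HFD2, HFD3 and HFD4, against 1.91, 6.01, 5.34 and 2.37 in CD1 to CD4. CD2 and CD3 were the only libraries above 2.56, and CD1 was the lowest of the 7. The means were 2.28 ± 0.265 on HFD (SD, n = 3) and 3.91 ± 2.07 on CD (SD, n = 4), a log2 ratio of −0.78. Over the 35 ways of dividing 7 libraries into 3 and 4, an exact permutation test gave p = 0.457 (two-sided), and the smallest p this design allows is 0.0571. Without CD2 the log2 ratio was −0.49, without CD3 −0.59, and without HFD3 −0.70.

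The mix of hormones was read as the share of each in the hormone reads of its library. Sst supplied 71.2, 59.4 and 56.5% of the hormone reads in HFD2, HFD3 and HFD4, against 63.9, 62.2, 54.8 and 67.9% in CD1 to CD4. The groups overlapped, and Sst held the larger part of the hormone reads in all 7 libraries. Pyy supplied 7.18 to 9.10% on HFD and 6.97 to 9.35% on CD, and Ppy 11.9 to 20.4% on HFD and 12.2 to 18.3% on CD. The Gcg share was 8.999, 11.1 and 21.8% in HFD2, HFD3 and HFD4, against 12.9, 16.5, 19.9 and 10.602% in CD1 to CD4. HFD4 had the highest Gcg share of all libraries, with a total hormone amount relative to insulin between those of HFD3 and HFD2.

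**Figure D2:**
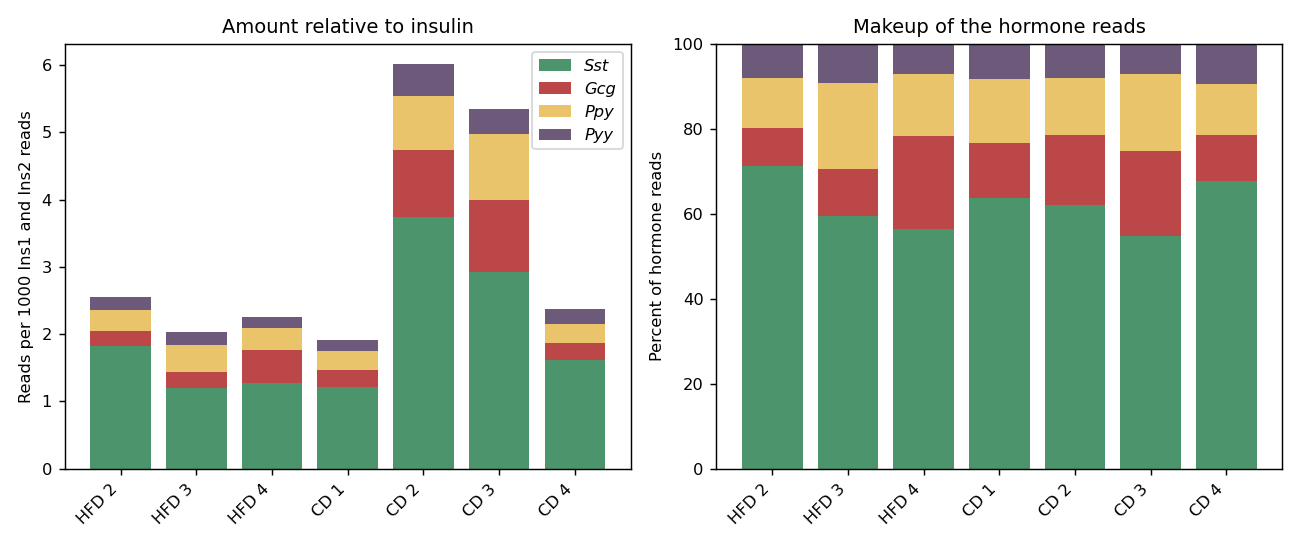
Left, reads of Sst, Gcg, Ppy and Pyy per 1000 reads of Ins1 and Ins2 in each library, stacked, HFD libraries first. Right, the same reads as percent of all hormone reads in the library. The stacks of CD2 and CD3 reach 6.01 and 5.34 and the other 5 lie between 1.91 and 2.56, while Sst takes 54.8 to 71.2% in every library.

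Markers of other pancreatic cells were read in the same libraries, as sums in CPM of total counts and as single genes in TMM-scaled CPM. The summed level of 15 acinar markers was 2791, 1.14 and 1170 CPM in HFD2, HFD3 and HFD4, against 83.9, 3622, 481 and 729 CPM in CD1 to CD4. CD2 was highest for both sets, but CD3, second for the hormones, had less of the acinar genes than 4 of the other libraries. No acinar marker was at 0 in all libraries, 7 of the 15 were at 0 in HFD3, and 12 of the 14 tested lay above 0 and 2 below in HFD over CD (14 and 0 without HFD3). The sums for 6 duct markers were 189 to 282 CPM on HFD and 213 to 290 CPM on CD. Most of this was Krt7, at 161 to 253 CPM on HFD and 181 to 219 CPM on CD, while Muc1 had at most 8.30 CPM. The sums of the 6 macrophage markers in the table (of 7) were 30.3 to 49.3 CPM on HFD and 46.7 to 72.4 CPM on CD. Most of this was C1qa, at 19.5 to 44.9 CPM on HFD and 40.1 to 67.1 CPM on CD, while Csf1r had at most 4.61 CPM. Endothelial markers summed to at most 7.84 CPM on HFD and 5.47 CPM on CD, and stellate and fibroblast markers to at most 0.764 CPM on HFD and 2.60 CPM on CD, with 1 of 6 and 2 of 6 of them at 0 in every library. The part of any of these in the hormone levels was not tested.

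Ttr encodes transthyretin, a carrier of thyroid hormone and of retinol-binding protein that is abundant in α-cells and is also transcribed in β-cells (chr18:20665280-20674321, plus strand). Its levels did not follow those of the hormones over the 7 libraries. Ttr had 696, 507 and 784 CPM in HFD2, HFD3 and HFD4, against 681, 628, 688 and 643 CPM in CD1 to CD4. The 4 CD libraries were close together, HFD4 was the highest and HFD3 the lowest of all 7, and the groups overlapped. The means were 662 ± 142 CPM on HFD (SD, n = 3) and 660.1 ± 29.2 CPM on CD (SD, n = 4). The log2 fold change was 0.00 ± 0.14 (standard error; edgeR adjusted p = 0.996), and 0.15 without HFD3.

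Ttr was also set against Gcg as a ratio of reads. There were 9.78, 7.54 and 5.33 Ttr reads per Gcg read in HFD2, HFD3 and HFD4, against 9.48, 2.23, 2.32 and 8.90 in CD1 to CD4. The ratio was lowest in CD2 and CD3, the libraries with the most Gcg, and overlapped between the diets (exact permutation p = 0.457, two-sided, 35 divisions). The coefficient of variation of Ttr among CD mice was 4.42%, and 3252 of the 3443 genes at 50 CPM or more varied more. Per kb of transcript, Ttr stood at 558 CPM on HFD and 557 CPM on CD, while Sst stood at 602 CPM on HFD and 936 CPM on CD. By the same measure, Ppy had 212 CPM on HFD and 338 CPM on CD, Gcg 87.5 CPM on HFD and 166 CPM on CD, and Pyy 99.7 CPM on HFD and 157 CPM on CD. Ins2 had 467429 CPM per kb on HFD and 444304 on CD.

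**Figure D3:**
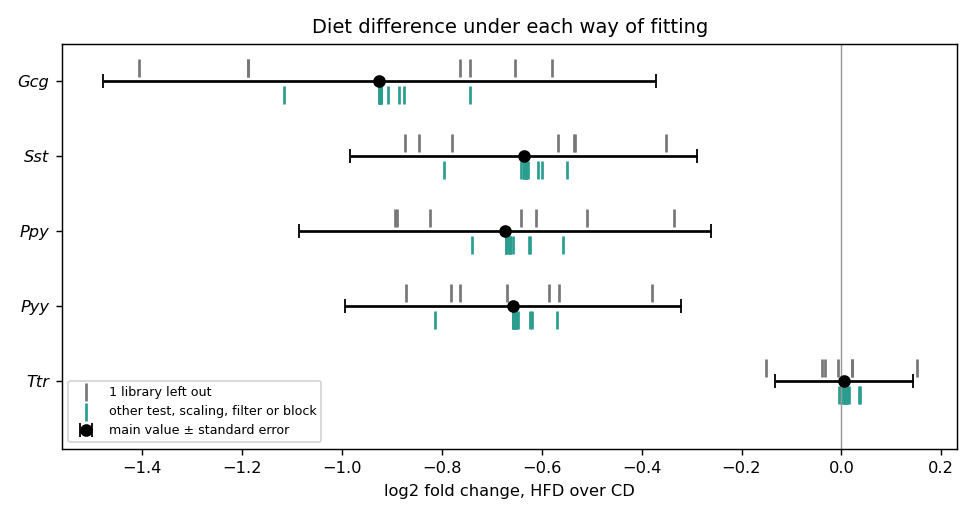
log2 fold change, HFD over CD, of Gcg, Sst, Ppy, Pyy and Ttr. Black points are the main edgeR values with their standard errors, grey ticks the values with 1 library left out, and green ticks those with another test, scaling or filter or with a replicate block. The ticks of the 4 hormones all lie below 0, between −1.41 and −0.33, and those of Ttr lie on both sides of 0. Every fit kept CD2, CD3 or both.

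Hhex and Irx2 were near the floor of detection on both diets. Hhex, a homeobox factor that δ-cells need, is at chr19:37434810-37440731 on the plus strand. It had 10, 0 and 23 reads in HFD2, HFD3 and HFD4, against 0, 29, 11 and 14 reads in CD1 to CD4. HFD3 and CD1, the libraries with no Hhex read, had the 2 lowest Sst levels, and the groups overlapped. On the log2 scale HFD over CD was −0.37 ± 1.76 (standard error; edgeR adjusted p = 0.977), and it turned to 0.21 without HFD3. Ghsr, the ghrelin receptor and a δ-cell gene, was also at 0 in just HFD3 and CD1, with 19, 0 and 8 reads in HFD2 to HFD4, against 0, 30, 17 and 11 reads in CD1 to CD4. The other δ-cell genes listed had reads in CD1, among them Casr at 74.5 CPM and Rbp4 at 20.1 CPM. HFD3 was at 0 for 4 of the 8 δ-cell genes, and for 8.55% of the genes with at least 50 counts in every other library.

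Irx2, an Iroquois homeobox factor of α-cells, is at chr13:72628820-72634198 on the plus strand. It had 10, 0 and 8 reads in HFD2, HFD3 and HFD4, against 5, 16, 16 and 15 reads in CD1 to CD4. The groups overlapped, at 0 to 0.738 CPM on HFD and 0.419 to 1.43 CPM on CD, and the gene was below the filter of the main test. It passed the filter with any 1 HFD library left out. The log2 fold change was then −1.65 without HFD2, −0.49 without HFD3 and −1.27 without HFD4. Without HFD3 its adjusted p was 0.968 in edgeR.

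Pou3f4 and Irx1, which are also transcribed in α-cells, were lower still. Pou3f4 had 0 reads on HFD and 6 reads in each of CD1 and CD3, and Irx1 had 0 reads on HFD and 1 read in CD3.

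Factors that several islet lineages share were expressed far above Hhex and Irx2 per kb of transcript. Pax6, which all islet endocrine cells use, had 88.3 CPM per kb on HFD and 93.8 on CD. Insm1, a zinc-finger factor of endocrine cells, had 64.4 CPM per kb on HFD and 57.3 on CD, and Nkx2-2 had 70.9 on HFD and 58.4 on CD. By comparison Hhex had 0.432 CPM per kb on HFD and 0.565 on CD, and Irx2 had 0.164 on HFD and 0.345 on CD. Of the 16 islet lineage factors listed, 11 were tested, 7 of them higher and 4 lower on HFD (median log2 fold change 0.10), and without HFD3 7 of 12 were higher and 5 lower (median 0.05). Over all 12354 genes tested, 5199 lay above and 7155 below 0, with a median of −0.08. None of the 11 lineage factors tested had an unadjusted p under 0.05 in edgeR, against 5.77% of all genes tested.

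**Figure D4:**
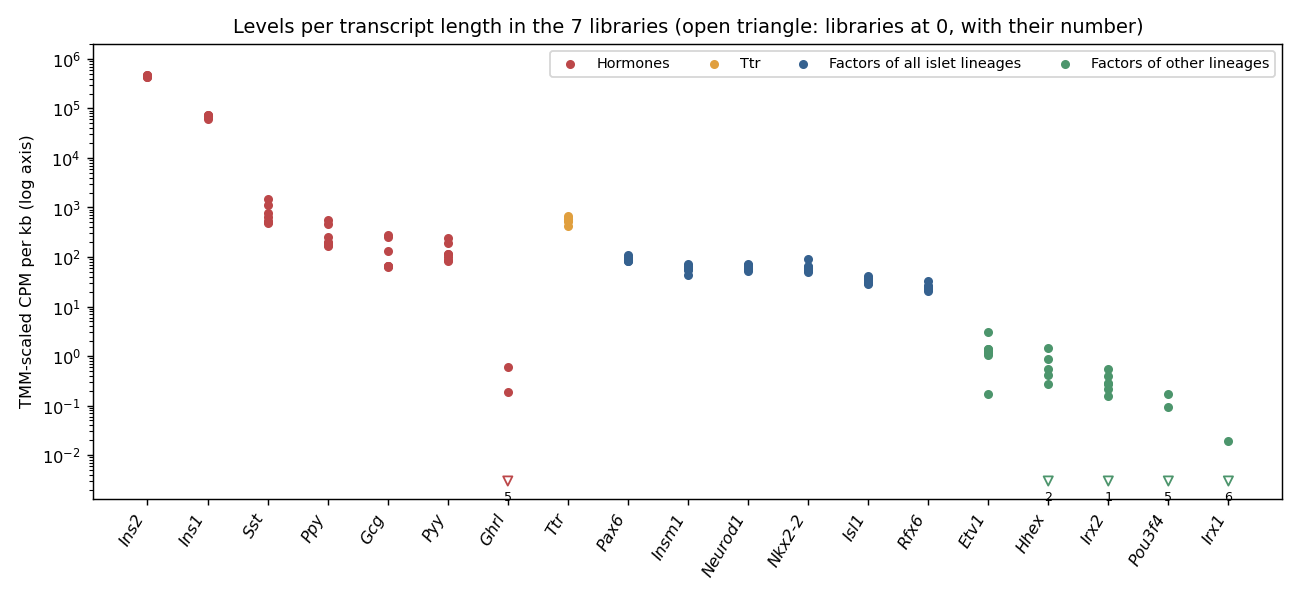
Level per kb of transcript (TMM-scaled CPM per kb, log axis) of hormones, Ttr, factors that several islet lineages share and factors of other lineages. The legend names the shared factors as those of all islet lineages. Each point is 1 of the 7 libraries. Open triangles mark genes with libraries at 0, with their number; Irx1 is at 0 in 6 libraries and Ghrl in 5, while Sst and Ttr have reads in all 7.

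Beyond the members, no gene in the lists for each lineage passed the test, which called 0 of 12354 genes (0%). Among all genes tested, 5199 lay above 0 and 7155 below (median −0.08), or 5569 and 6785 without HFD3 (median −0.04). Of 8 α-cell genes, 4 were tested, of which 2 lay above 0 and 2 below, and their median log2 fold change was −0.17, or −0.21 without HFD3. Of 8 δ-cell genes all were tested, 1 above and 7 below 0 (median −0.37), and without HFD3 these were 3 and 5 (median −0.10). The 3 PP-cell genes had 1 above and 2 below 0, with and without HFD3. These lists include Gcg, Ttr, Sst, Ppy and Pyy themselves. Casr, the calcium-sensing receptor, had 67.2 ± 1.70 CPM on HFD (SD, n = 3) and 72.9 ± 7.06 CPM on CD (SD, n = 4), and Rbp4, the retinol carrier that binds transthyretin, had 20.5 ± 10.2 CPM on HFD (SD, n = 3) and 26.5 ± 11.2 CPM on CD (SD, n = 4).

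Slc7a2, a transporter of cationic amino acids, had 253, 174 and 259 CPM in HFD2, HFD3 and HFD4, against 329, 297, 294 and 248.6 CPM in CD1 to CD4. CD4 lay below the 2 highest HFD libraries, so the groups overlapped. Its log2 fold change was −0.35 ± 0.16 (standard error; edgeR adjusted p = 0.854), and −0.21 without HFD3.

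Gc had the lowest p of the α-cell list and a positive fold change. It encodes the vitamin D binding protein, which mouse α-cells transcribe. It had 106, 118 and 107 CPM in HFD2, HFD3 and HFD4, against 30.01, 49.4, 70.8 and 57.8 CPM in CD1 to CD4. Each HFD library exceeded each CD library, as for 4.03% of all genes tested, while 5.37% had each HFD library below each CD library. Its log2 fold change was 1.08 ± 0.25 (standard error; edgeR adjusted p = 0.633), and 1.01 without HFD3, so that Gc did not pass the test over all genes. None of the 8 members had groups that did not overlap.

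Receptors for these hormones were partly detected in the sorted cells. The list also held Gipr, the receptor for GIP, which none of the members encodes. Of 14 receptor genes, 5 were tested, 2 of them above 0 and 3 below (median log2 fold change −0.19), or 1 and 4 without HFD3 (median −0.11), and 6 were at 0 in all 7 libraries, namely Npy1r, Npy2r, Npy4r, Npy5r, Glp2r and Sstr4. Sstr3 was the somatostatin receptor with the highest level, at 230.0, 263 and 276 CPM in HFD2 to HFD4, against 160, 192, 231 and 196 CPM in CD1 to CD4. CD3 reached the lowest HFD library, so the groups overlapped. HFD over CD gave a log2 fold change of 0.39 ± 0.14 (standard error; edgeR adjusted p = 0.817), and 0.36 without HFD3. The receptors for glucagon and the incretins did not pass the test. Gcgr had 43.7 ± 15.8 CPM on HFD (SD, n = 3) and 52.8 ± 14.6 CPM on CD (SD, n = 4). Gipr had 137 ± 24.6 CPM on HFD and 157 ± 16.5 CPM on CD, and Glp1r, the target of the sorting ligand, had 215 ± 50.2 CPM on HFD and 193 ± 11.2 CPM on CD (SD, n = 3 and 4). Without HFD3 the log2 fold change of Glp1r turned to −0.05, against 0.15 with it. That of Gcgr was −0.62 without HFD3 and −0.28 with it, and that of Gipr −0.36 without HFD3 and −0.19 with it. The adjusted p of these 3 in edgeR lay between 0.904 and 0.919 over all 7 libraries.

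Of 6 tested genes of prohormone processing, the enzymes Pcsk1, Pcsk2, Cpe and Pam lay above 0 in HFD over CD, and the convertase inhibitor Pcsk1n and the Pcsk2 chaperone Scg5 below. Their median log2 fold change was 0.11, or 0.13 without HFD3, where Scg5 turned to 0.04. In edgeR 2 of the 6 had an unadjusted p under 0.05, Pcsk2 above 0 and Pcsk1n below, against 5.77% of all genes tested. Pcsk2, a prohormone convertase, had 3339.9 ± 166 CPM on HFD (SD, n = 3) and 2976 ± 47.1 CPM on CD (SD, n = 4). Each HFD library exceeded each CD library, as for 4.03% of all genes tested. The log2 fold change was 0.17 ± 0.06 (standard error; edgeR adjusted p = 0.817), and 0.19 without HFD3. Pcsk1n, whose product inhibits the convertase Pcsk1, had 589 ± 37.6 CPM on HFD and 713 ± 93.1 CPM on CD, with a log2 fold change of −0.28 ± 0.12 (standard error; edgeR adjusted p = 0.854), and −0.24 without HFD3. Cpe, the carboxypeptidase that trims the cut peptides, had 3628 ± 165 CPM on HFD and 3336 ± 27.3 CPM on CD.

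Among 8 tested genes tied to transthyretin and thyroid hormone, 3 were higher and 5 lower on HFD (median log2 fold change −0.47, or −0.04 without HFD3). Dio1, a deiodinase of thyroid hormone, had 121, 144 and 93.4 CPM in HFD2, HFD3 and HFD4, against 73.9, 81.8, 83.6 and 82.0 CPM in CD1 to CD4. All 3 HFD libraries were higher than every CD library, as for 4.03% of all genes tested. The log2 fold change was 0.57 ± 0.16 (standard error; edgeR adjusted p = 0.731), and 0.40 without HFD3. Slc16a10, a transporter of aromatic amino acids and thyroid hormone, had 294 ± 81.4 CPM on HFD (SD, n = 3) and 284 ± 7.45 CPM on CD (SD, n = 4).

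Insulin itself served as the denominator above, and of the 11 β-cell genes 7 were higher and 4 lower on HFD (median log2 fold change 0.05), while without HFD3 5 were higher and 6 lower (median −0.03). Ins2 had 224366 ± 4663 CPM on HFD (SD, n = 3) and 213266 ± 3409 CPM on CD (SD, n = 4), a log2 fold change of 0.07 ± 0.02 (standard error; edgeR adjusted p = 0.817), and 0.07 without HFD3. Ins1 had a log2 fold change of 0.10 ± 0.05 (0.09 without HFD3). For both genes each HFD library exceeded each CD library, as for 4.03% of all genes tested.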

How the data were processed

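RNA from FACS-sorted β-cells was made into TruSeq Stranded mRNA libraries. The authors deposited raw counts per gene for 7 libraries on mm10. Their notes name edgeR, while aligner, counter, strand setting and annotation release are not stated in any source used. Of 24062 rows, 27 named a date in place of a gene and were left out (0.122 to 0.155% of counts). HFD and CD were compared with edgeR 4.0.16 (quasi-likelihood, TMM, filterByExpr, Benjamini-Hochberg over 12354 genes), tested on simulated data first. The members, lists and tests were chosen with earlier results of these data known. Named genes were the 8 members and, from each list, up to 4 of highest level and up to 3 of lowest p, plus the 3 genes most like each member by Pearson r of log2 CPM. Others named outside this rule were chosen after their values were seen: Irx1, Pou3f4, Ghsr, Mboat4, Pdx1, Mafa, Nkx6-1, Neurog3, Rfx6, Scg5, Sstr2 and receptors at 0. Some listed genes are not reported here. Lengths are median exonic lengths of principal transcripts in GENCODE M21. Alternatives were DESeq2 1.42.0, limma-voom 3.58.1, other edgeR tests, scalings and filters, each library left out and a replicate block. Python 3.11.15 and scipy 1.17.1 gave exact permutation tests.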

Additional observations from a re-analysis of the deposited data

Results flagged for a closer look

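In 5 of 56 islet genes checked, 1 of the 4 CD libraries lay far from the other 3, with a gap to its neighbour that exceeded Dixon's 95% critical value as a share of the group's range, which chance alone gives in about 1 of 20 groups. Neurog3 had 0.892 CPM in CD2 and Sstr2 0.403 CPM in CD3, both at few reads. Rfx6 was low in CD4 at 69.8 CPM, Pcsk1 high in CD1 at 665 CPM, and Scg5 high in CD3 at 729.6 CPM. None of the 8 members had such a library. The HFD group, with 3 libraries, was not checked.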

How the results depend on the processing

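All 76 alternative values of Gcg, Sst, Ppy and Pyy were below 0, and no alternative called a member. Each alternative kept CD2, CD3 or both, the highest libraries for these genes, so the shared sign cannot show whether the direction holds without them. CD1 and CD4 had 71.8 and 72.2 CPM of Gcg, against 67.2 to 147 CPM on HFD. For Sst they had 357 and 462 CPM, against 360 to 563 CPM on HFD. For Ppy these were 84.6 and 83.0 against 94.0 to 123 CPM, and for Pyy 45.1 and 63.7 against 48.3 to 62.6 CPM. For none of these hormones did both lie above the HFD range. A fit without CD2 and CD3 was not run. edgeR's quasi-likelihood test called 0 genes, against 23 with its likelihood ratio test, 10 with its exact test, 67 with DESeq2, 137 with DESeq2 on the genes kept by filterByExpr (chosen after seeing the data), 4 with at least 10 counts in every library, and 0 to 2 with 1 library left out (2 without HFD3). Genes at an unadjusted p under 0.05 numbered 713, and 475 without CD1 or 1119 without HFD4. With 1 library left out, log2 fold changes ran from −1.41 to −0.58 for Gcg, −0.87 to −0.35 for Sst, −0.89 to −0.33 for Ppy and −0.87 to −0.38 for Pyy. Without CD1, Gcg, Sst, Ppy and Pyy had unadjusted p of 0.0495, 0.0206, 0.0460 and 0.0121 in edgeR, and without CD4 Gcg had 0.0484 and Ppy 0.0416. DESeq2 on the genes kept by filterByExpr gave Pyy an unadjusted p of 0.0312. All these had an adjusted p over 0.05. Deviations of same-numbered libraries correlated at 0.0253, 0.00424 and 0.0816, below 0.1 for each. Those of libraries with different numbers correlated at −0.0567 to 0.0215. Such correlations cannot settle whether the replicate numbers pair the samples. With the replicate number as a block, 0 genes were called and 371 had an unadjusted p under 0.05, among them Sst (0.00682) and Pyy (0.00711), and the log2 ratio of hormone to insulin reads was −0.90. The cause of these differences was not tested. Depth limits Ghrl, Hhex and Irx2, where 0 reads allow up to 3.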

Other observations

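The genes whose level most resembled each hormone were found by Pearson r of log2 CPM over the 7 libraries, among 10346 other genes whose mean reached 5 CPM on either diet. These r values are descriptions with no test, since the libraries share their mice across genes and CD2 and CD3 stand apart for the hormones. Sst and Pyy were each other's first match (r = 0.97, and 0.99 without HFD3), with r = 0.80 over the 5 libraries other than CD2 and CD3. The next for Sst were Psme1, a proteasome activator subunit, and the kinase gene Stk24, and for Pyy they were Bivm and Stk24. Gcg was closest to Rhno1, Larp1b and Kat6a (r = 0.98, 0.97 and 0.97), with Ppy ranked 32 (r = 0.88), Sst 121 (r = 0.80) and Ttr 3809 (r = 0.28). Over the 5 libraries other than CD2 and CD3, r was −0.01 for Gcg with Ppy, −0.23 for Gcg with Sst, −0.43 for Gcg with Pyy, −0.32 for Ppy with Sst and −0.01 for Ppy with Pyy. Over these 5 libraries Ttr had r = 0.68 with Gcg, 0.25 with Sst, −0.27 with Pyy and −0.63 with Ppy. Ppy was closest to Eif3e, Upf3a and Runx1t1 (r = 0.96 for each). Ttr was closest to Rps19bp1, C030006K11Rik and Syne2 (r = 0.98 for each), and its r with Sst was 0.07, or −0.54 without HFD3.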
